A study of Homo sapiens with 7 samples.

Results

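Glycan-building transferases are the Golgi enzymes that lengthen, branch and cap the sugar chains of glycoproteins and glycolipids. Their genes were taken by name from the deposited gene table: every gene symbol that begins with ST3GAL, ST6GAL, ST6GALNAC, ST8SIA, GCNT, GALNT, B3GNT, B3GALT, B4GALT, B4GALNT, FUT or MGAT followed by a digit, without antisense names. The rule found 75 genes in 12 name families among the 19775 genes listed, and 5 antisense names were left out. Genes were tested if their normalised reads averaged at least 10 over the 7 libraries, which 67 of the 75 met. The other 8, with means between 2.50 and 9.05, were GCNT6, GCNT7, ST8SIA1, GALNT4, GALNT9, B3GNT3, B3GNT8 and ST6GALNAC4P1, the last a pseudogene.

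The cells were human embryonic stem cells of the established line H1, wild type and grown in E8, a defined medium that holds FGF2 and TGFβ. Cells were given XMD892, a kinase inhibitor that the title of the study ties to ERK5, at 1 µM for 12 h (1 sample), 24 h (2 samples) or 48 h (2 samples), or were left untreated in E8 and harvested at 48 h (2 samples). Poly(A) RNA was read in pairs on a NextSeq instrument, and values are normalised read counts, gene reads scaled by the authors with a single factor for each library. The listed genes held between 18528689 and 24148186 reads per library. All samples come from 1 line, and the labels do not say whether replicates came from separate cultures, so p-values reflect the spread among these samples, which may be technical. E8 was sampled at 48 h only, so the comparisons at 12 h and 24 h also differ in harvest time, and the test takes the spread of the single 12 h library from that of the others.

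Each transferase takes a sugar from a nucleotide-sugar donor and adds it to a growing chain in a fixed linkage. GALNT enzymes start mucin-type O-glycans, MGAT enzymes set the branches of N-glycans, GCNT enzymes make branches on O-glycans and lactosamine chains, B3GNT, B3GALT, B4GALT and B4GALNT enzymes lengthen chains, and FUT and sialyltransferase enzymes (ST3GAL, ST6GAL, ST6GALNAC, ST8SIA) cap them. Human embryonic stem cells are known for such glycans: the globo-series stage-specific embryonic antigens, the H antigen, and the TRA antigens carried by podocalyxin are used to identify them.

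The 3 members with the largest changes at 48 h were MGAT4C, ST3GAL3 and GCNT4, and their promoters, chosen after these values were seen, are shown because the results turn on these genes. Each sequence holds the 250 bases before the RefSeq start on GRCh38.p14, written 5′ to 3′ on the gene's strand. Capitals mark matches, on either strand, to the GC box GGGCGG, the CCAAT box CCAAT, or a MEF2-type motif (CTA and TAG with any 4 bases between). MEF2 factors are known substrates of ERK5.
ST3GAL3, chr1:43707286-43707535, plus strand: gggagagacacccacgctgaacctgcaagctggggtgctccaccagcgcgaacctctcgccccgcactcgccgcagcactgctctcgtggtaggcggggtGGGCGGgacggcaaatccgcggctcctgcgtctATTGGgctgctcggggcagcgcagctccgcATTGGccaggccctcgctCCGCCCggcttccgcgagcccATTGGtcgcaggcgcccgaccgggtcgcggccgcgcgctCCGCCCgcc
GCNT4, chr5:75052559-75052808, minus strand: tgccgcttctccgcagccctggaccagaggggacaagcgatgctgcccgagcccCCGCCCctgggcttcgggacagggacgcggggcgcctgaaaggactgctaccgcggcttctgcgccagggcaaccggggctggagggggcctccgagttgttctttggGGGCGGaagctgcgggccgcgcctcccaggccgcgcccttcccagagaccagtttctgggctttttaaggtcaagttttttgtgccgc
MGAT4C, chr12:86839001-86839250, minus strand, the outermost of its 3 RefSeq starts: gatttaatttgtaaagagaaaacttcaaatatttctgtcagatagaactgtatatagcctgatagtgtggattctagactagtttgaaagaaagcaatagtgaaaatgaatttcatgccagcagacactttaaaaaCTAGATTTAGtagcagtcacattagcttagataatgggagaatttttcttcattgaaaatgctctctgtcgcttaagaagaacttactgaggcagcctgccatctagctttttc

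The promoter of ST3GAL3 had a GC content of 74.0% and 33 CpG dinucleotides, with GC boxes 150, 69 and 9 bases and CCAAT boxes 117, 87 and 48 bases before the start. That of GCNT4 had a GC content of 68.4% and 21 CpG, with GC boxes 196 and 88 bases before the start. The MGAT4C promoter was AT-rich, with a GC content of 34%, 1 CpG and 1 MEF2-type match 114 bases before the start. The motif as searched is loose, and this match has GATT between CTA and TAG, so its middle bases are not all A or T. RefSeq gave 96 promoters for 53 of the 75 members, with a median GC content of 66.2% against 58.0% over all 35116 promoters of the table. A GC box was present in 58.3% of the members' promoters and 42.6% of all, a CCAAT box in 30.2% and 32.0%, and the MEF2-type motif in 3.13% and 2.36%. Matches to TATAAA were found in 1.04% of the members' promoters and 10.7% of all. The further motifs searched were TGANTCA (3.13% and 6.57%), TGACGTCA (2.08% and 1.65%) and CCGGAA (15.6% and 14.5%), none of which stood in the 3 promoters shown. A match of letters is a description and does not show that a factor binds.

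In E8, the transferase genes spanned a wide range of levels when normalised reads were divided by the length of annotated exon (GENCODE 29), so that genes could be set against each other. B3GNT7, which extends the poly-N-acetyllactosamine chains of keratan sulphate, stood highest, at 1115 and 1389 reads per kb in the 2 E8 libraries. B4GALT5, a lactosylceramide synthase that starts most glycosphingolipids, followed with 749 and 730 reads per kb. In the other families the highest mean levels per kb belonged to MGAT4B (403 and 531), GALNT7 (503 and 403), ST6GAL1 (372 and 376), B4GALNT4 (272 and 366), B3GALT6 (221 and 275), GCNT2 (165 and 164), ST6GALNAC4 (117 and 193), ST3GAL2 (122 and 175), FUT10 (84.4 and 67.7) and ST8SIA6 (31.4 and 31.9). Below the first pair, the E8 libraries of neighbours in this order overlapped in many places, for example MGAT4B with GALNT7 and GCNT2 with ST6GALNAC4. Within families, GALNT1 (503 and 397) overlapped with GALNT7 and FUT8 (75.6 and 70.0) with FUT10. ST3GAL3 stood near the bottom, with 2.47 and 2.84 reads per kb. That place depends on the length used, which joins all annotated exons of a gene, 19.5 kb for ST3GAL3. Its mean in E8 was 51.7 normalised reads, above the 27.2 of FUT2, which stood higher per kb. MGAT4C had 6.07 and 3.63 reads per kb and GCNT4 had 22.5 and 16.4.

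**Figure D1:**
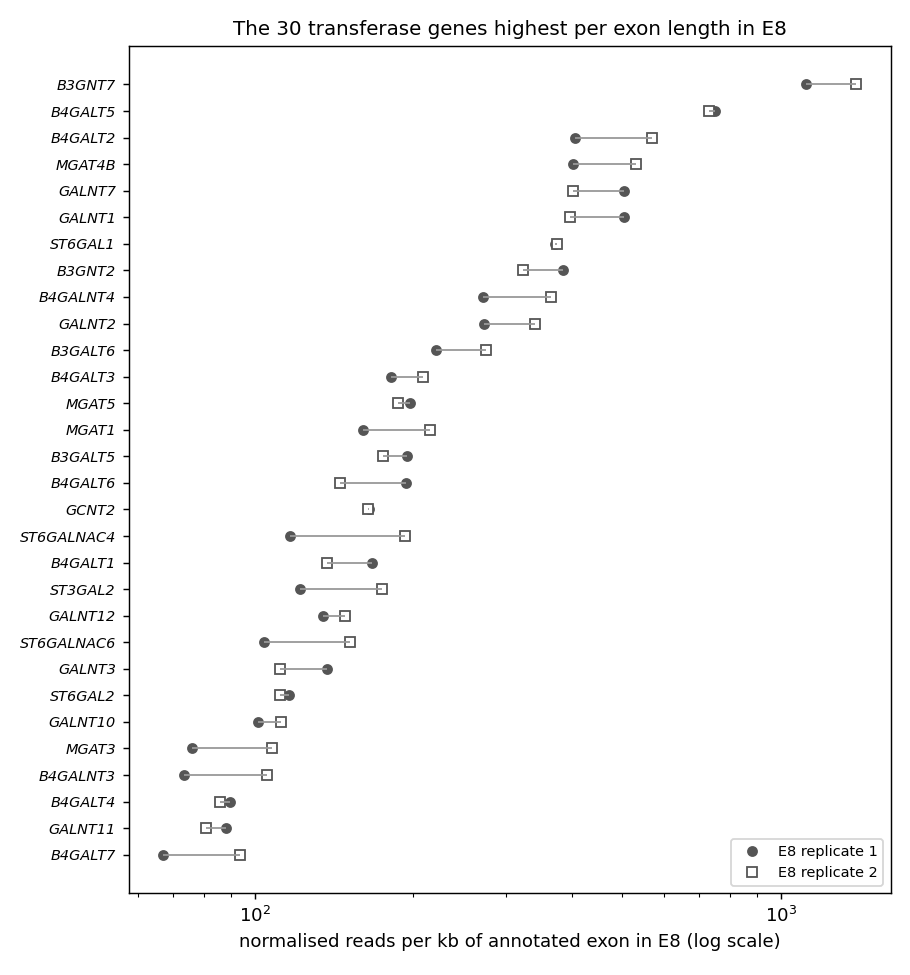
Levels of the 30 highest transferase genes in the 2 untreated E8 libraries, as normalised reads per kb of annotated exon on a log axis, with 1 circle and 1 square per gene joined by a line. B3GNT7, at 1115 and 1389, lies above the rest, and the pair of E8 libraries is widest for genes such as ST6GALNAC4.

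After 48 h of XMD892, 12 of the 67 tested members passed limma (Benjamini-Hochberg adjustment over all 16351 genes, threshold 0.05), 4 higher and 8 lower than in E8. That was 17.9% of the members, beside 11.5% of all genes tested (5.08% higher and 6.45% lower). The median log2 fold change was -0.13 over the members and 0.02 over all genes. ST3GAL3, B4GALT3, GALNT16 and GALNT18 were higher, and MGAT4C, GCNT4, ST8SIA5, ST8SIA3, B3GNT7, GALNT10, ST6GAL2 and GALNT7 were lower. The 48 h libraries lay both above or both below the E8 libraries in 41 of the 67 tested members and 8552 of all 16351 genes. They did so in each of the 12 genes that passed. The count was 6 without 48 h replicate 1, 4 without 48 h replicate 2 and 23 without E8 replicate 2 (11 higher, 12 lower), and rescaling to the same total gave 2 higher and 8 lower. In the fits named here that left a library out, the share of all genes called moved in the same direction as the count. All 4 of the calls for ST3GAL3, MGAT4C, GCNT4 and ST8SIA5 held under every setting tried. Bulk RNA cannot tell fewer cells of a type from less RNA per cell, here or in the results that follow.

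**Figure D2:**
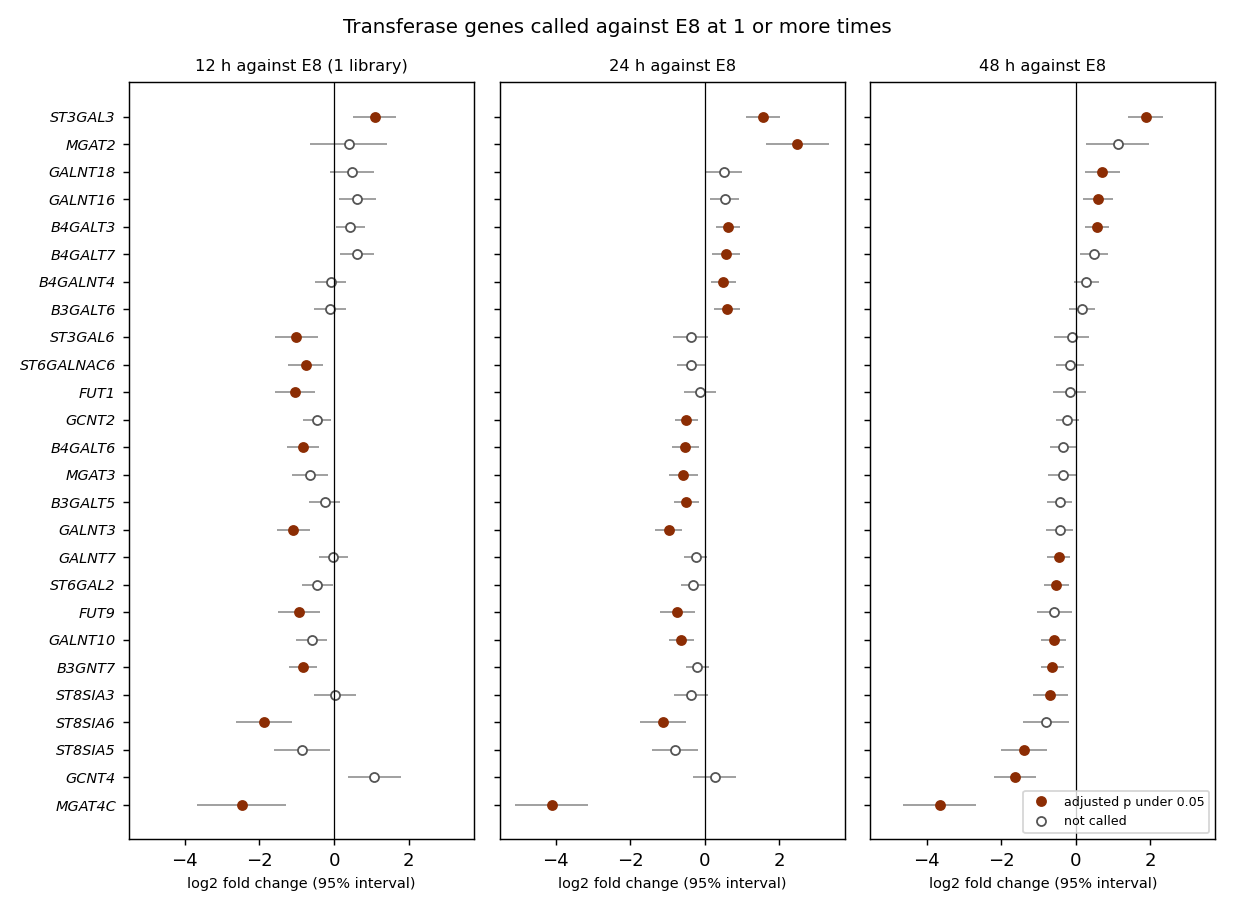
Log2 fold changes with 95% intervals from limma for the 26 transferase genes that passed the test against E8 at 1 or more times, at 12 h, 24 h and 48 h of XMD892. Filled points are adjusted p under 0.05. MGAT4C lies far to the left in all 3 panels and ST3GAL3 to the right, while GCNT4 lies right of 0 at 12 h and at -1.63 at 48 h.

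ST3GAL3 (ENSG00000126091), which adds sialic acid to terminal galactose on N-acetyllactosamine chains, rose at every time. It had 191 and 191 normalised reads at 48 h, against 48.0 and 55.4 in E8. The 12 h library had 111 and the 24 h libraries had 157 and 152, so that the treated libraries lay in order of time and none overlapped with E8. The log2 fold changes were 1.09 at 12 h, 1.56 at 24 h and 1.87 at 48 h (SE 0.27, 0.22 and 0.22), with limma adjusted p of 0.017, 7.9e-05 and 8.0e-06. Between 48 h and 24 h the log2 difference was 0.31, with a 95% interval of -0.16 to 0.77 and a limma adjusted p of 0.62. A fit of the 12 h and E8 libraries alone ended the call at 12 h (limma adjusted p = 0.0919).

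ST3GAL3 lies at chr1:43705824-43931165 on the plus strand of GRCh38 in GENCODE 29, which also places a readthrough transcript, AL451062.3, on the same strand and AL451062.1 on the other. The annotation and strand setting of the authors' counting are not given in the sources used here, so reads that such genes share with ST3GAL3 could not be assigned. Its upstream neighbour KDM4A, a histone demethylase, had 1884 ± 251 normalised reads at 48 h and 1855 ± 42.4 in E8 (SD, n = 2 each; log2 fold change 0.02, limma adjusted p = 0.96). KDM4A-AS1, on the opposite strand at the start of ST3GAL3, had 36.9 ± 9.48 at 48 h and 25.2 ± 9.99 in E8 (log2 fold change 0.56, limma adjusted p = 0.37). Downstream, ATP6V0B, a subunit of the vacuolar proton pump, rose to 1923 ± 152 at 48 h, against 1303 ± 287 in E8 (log2 fold change 0.58, limma adjusted p = 0.022). CCDC24 rose to 250 ± 21.5, against 153 ± 33.1 in E8 (log2 fold change 0.72, limma adjusted p = 0.027). B4GALT2, a member that also lies downstream, had 2072 ± 75.6 at 48 h and 1839 ± 434 in E8 (log2 fold change 0.19, limma adjusted p = 0.48). Of 16 tested genes beside ST3GAL3 and GCNT4, 2 were higher and 1 lower at 48 h (18.8% called, beside 11.5% of all genes). The limma adjusted p was 0.0734 to 0.214 for ATP6V0B and 0.0929 to 0.189 for CCDC24 without E8 replicate 1 or without either 48 h replicate.

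The other 5 ST3GAL genes did not pass the test at 48 h, with log2 fold changes between -0.23 and 0.10. ST3GAL2, which makes the sialylated globo-series antigen of stem cells, had 1488 and 1411 normalised reads at 48 h, against 1187 and 1701 in E8. Its log2 fold change was 0.03, with a 95% interval of -0.31 to 0.37 and a limma adjusted p of 0.93. ST3GAL1 had 179 ± 30.5 at 48 h and 196 ± 16.4 in E8, ST3GAL4 had 244 ± 7.27 and 288 ± 53.6, and ST3GAL5, the synthase of ganglioside GM3, had 104 ± 0.332 and 97.4 ± 8.0 (SD, n = 2 each). Their limma adjusted p at 48 h lay between 0.48 and 0.85. At 12 h ST3GAL6, which was chosen after its values were seen, fell to 68.7, against 134 and 145 in E8 (log2 fold change -1.01, limma adjusted p = 0.027), and it had 138 and 121 at 48 h. Its call at 12 h ended in the fit of the compared groups alone, with quantile normalisation and with DESeq2 (adjusted p 0.0568 to 0.07).

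GCNT4, at chr5:75025346-75030899 on the minus strand, encodes an enzyme that adds the core 2 branch to mucin-type O-glycans. It had 30.2 and 37.7 normalised reads at 48 h, against 125 and 90.9 in E8, and fell by 1.63 on the log2 scale (SE 0.28, limma adjusted p = 0.00045), 3.09-fold. The 12 h library had 226, and the 24 h libraries had 166 and 99.1. The values at 12 h and 24 h thus lay above or within the E8 range and both 48 h libraries below it. At 12 h the log2 fold change was 1.08, with a limma adjusted p of 0.054, and at 24 h it was 0.26, with a limma adjusted p of 0.56. Directly compared, 48 h was lower than 24 h, with a log2 difference of -1.89 (SE 0.28, limma adjusted p = 0.0005).

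Between 48 h and 24 h, 7 members and 2077 of all 16351 genes had an unadjusted limma p under 0.05. GCNT4 was the only transferase gene that passed the test in this comparison, and it was lower. That was 1 of 67 members, beside 1.2% of all genes (0.349% higher and 0.856% lower). The count in this comparison was 6 without E8 replicate 1 and 5 without E8 replicate 2. The share of all genes called in this comparison also rose in these fits. The 48 h call of GCNT4 and its direction held under every setting tried, with log2 fold changes between -1.86 and -1.40 when 1 library was left out. LINC01336, which GENCODE 29 places at chr5:75047719-75052843 on the same strand and whose span holds the RefSeq start of GCNT4, was listed at 23.6 normalised reads at 12 h. It had 8.33 and 8.42 at 24 h and 4.32 and 4.96 at 48 h, against 6.98 and 3.31 in E8, too low for testing. FAM169A, a neighbour of GCNT4, fell to 472 ± 32.8 at 48 h, against 713 ± 123 in E8 (SD, n = 2 each; log2 fold change -0.58, limma adjusted p = 0.029). That call was lost without E8 replicate 1 or either 48 h replicate (limma adjusted p 0.106 to 0.203).

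**Figure D3:**
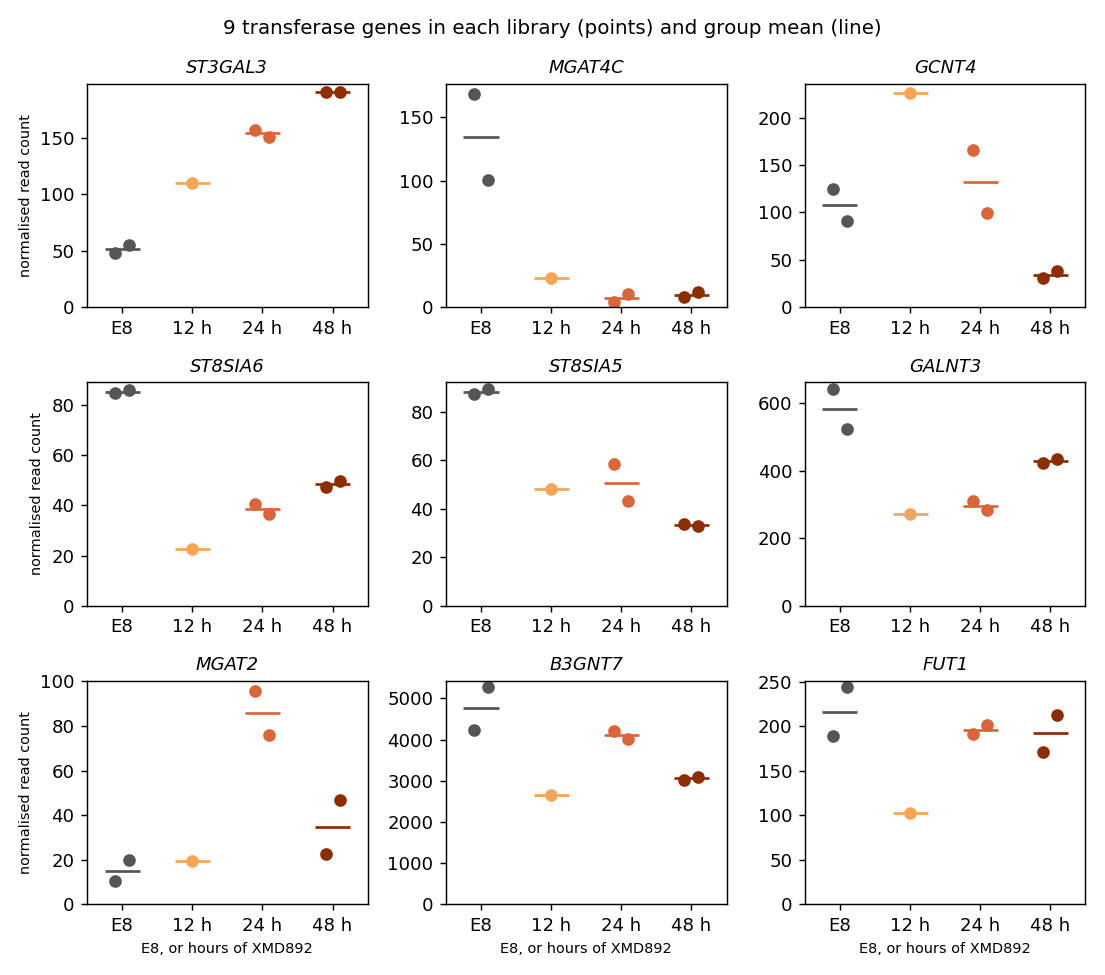
Normalised read counts of 9 transferase genes in each of the 7 libraries, with E8 at the left and the hours of XMD892 in order; points are libraries and lines are group means. ST3GAL3 runs upward with time to 191 at 48 h, MGAT4C is at or below 22.5 in every treated library, MGAT2 is high at 24 h, and FUT1 is low at 12 h alone.

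The remaining GCNT genes did not pass the test at 48 h. GCNT2, the enzyme that makes I-branches on lactosamine chains, had 1090 and 1027 normalised reads at 24 h, against 1496 and 1488 in E8, and fell by 0.50 on the log2 scale at that time (SE 0.15, limma adjusted p = 0.026). At 48 h it had 1337 and 1217 (log2 fold change -0.23, limma adjusted p = 0.35). The 24 h call was lost without either 24 h replicate (limma adjusted p 0.148 and 0.213). GCNT1, which also makes the core 2 branch, had 256 ± 13.9 at 48 h and 314 ± 33.2 in E8 (SD, n = 2 each; log2 fold change -0.29, limma adjusted p = 0.38).

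MGAT4C (chr12:85955666-86838904, minus strand) is a homologue of the enzymes that add an antenna to the core mannose of N-glycans. It had 7.56 and 11.9 normalised reads at 48 h, 4.17 and 10.3 at 24 h and 22.5 at 12 h, against 169 and 101 in E8. No treated library came near the E8 range. The log2 fold changes were -2.48 at 12 h, -4.10 at 24 h and -3.64 at 48 h (SE 0.58, 0.47 and 0.47), with limma adjusted p of 0.01, 6.3e-06 and 2.3e-05. On the log2(value + 1) scale, which understates changes at low levels, this was 12.5-fold lower at 48 h. The 12 h call was lost without E8 replicate 1 (limma adjusted p = 0.0664).

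MGAT2 adds the first sugar of the second antenna of complex N-glycans. It had 95.8 and 75.8 normalised reads at 24 h, against 10.5 and 19.8 in E8, and rose by 2.48 on the log2 scale (SE 0.41, limma adjusted p = 0.00037). At 48 h it had 22.7 and 46.6 (log2 fold change 1.12, limma adjusted p = 0.078), and at 12 h it had 19.3. The change between 48 h and 24 h was -1.36, with a limma adjusted p of 0.12. MGAT2 lies at chr14:49620795-49623481 on the plus strand, and GENCODE 29 places AL139099.1 across it on the other strand. Without a stated strand setting, reads of both genes cannot be told apart.

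MGAT1, which opens the way to complex N-glycans, had 2571 and 2512 normalised reads at 48 h, against 1860 and 2496 in E8 (log2 fold change 0.24, limma adjusted p = 0.34). MGAT3, which adds the bisecting sugar, fell to 308 and 355 at 24 h, against 415 and 588 in E8 (log2 fold change -0.58, limma adjusted p = 0.04), and had 393 and 385 at 48 h. That call was lost without E8 replicate 2, either 24 h replicate or either 48 h replicate (limma adjusted p 0.058 to 0.289) and in the fit of the compared groups alone (0.0546). MGAT5, whose antenna carries long lactosamine chains, had 1831 ± 246 at 48 h and 1649 ± 60.6 in E8 (SD, n = 2 each), and MGAT4B had 2539 ± 293 and 2567 ± 495. Of the 8 MGAT genes, 1 was lower and none higher at 48 h (12.5%, near the 11.5% of all genes), and 1 was higher and 2 lower at 24 h (37.5% beside 16.2%). At 48 h 3 of them had an unadjusted limma p under 0.05, as did 4368 of all 16351 genes.

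Sialyltransferases of the ST8SIA family add sialic acid to sialic acid. Of 5 tested, 2 were lower and none higher at 48 h (40% called, beside 11.5% of all genes). ST8SIA5, which works on gangliosides, had 33.5 and 32.7 normalised reads at 48 h, against 87.3 and 89.2 in E8, and fell by 1.39 on the log2 scale (SE 0.30, limma adjusted p = 0.0036). It had 48.3 at 12 h and 58.3 and 43.0 at 24 h, all below the E8 pair, with limma adjusted p of 0.16 and 0.067. ST8SIA3 fell to 126 and 130 at 48 h, against 220 and 193 in E8 (log2 fold change -0.68, limma adjusted p = 0.049). This call was at the edge of the threshold and was lost without E8 replicate 1, the 12 h library or either 48 h replicate (limma adjusted p 0.0506 to 0.213), and without a filter, with TMM factors, with quantile normalisation and with DESeq2 (0.0559 to 0.0785).

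ST8SIA6 was lowest early. It had 22.5 normalised reads at 12 h and 40.6 and 36.5 at 24 h, against 84.7 and 85.9 in E8, with log2 fold changes of -1.87 and -1.13 (SE 0.37 and 0.30, limma adjusted p 0.0027 and 0.013). At 48 h it had 47.5 and 49.6, still below both E8 libraries (log2 fold change -0.80, limma adjusted p = 0.085). The 24 h call was lost without E8 replicate 1 (limma adjusted p = 0.057) and without 24 h replicate 2 (0.0745), and the 12 h call held under every setting tried. ST8SIA2, a polysialyltransferase of the neural cell adhesion molecule, had 162 ± 4.87 at 48 h and 143 ± 5.25 in E8 (SD, n = 2 each; log2 fold change 0.19, limma adjusted p = 0.61). The other polysialyltransferase, ST8SIA4, had 18.4 and 12.9 at 48 h, against 18.3 and 27.3 in E8. ST8SIA1, which makes ganglioside GD3, was listed at 4.32 and 17.9 at 48 h, against 10.5 and 5.78 in E8, and was not tested.

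Among the enzymes that add sialic acid to galactose through its other position, ST6GAL2 had 553 and 672 normalised reads at 48 h, against 894 and 859 in E8, and fell by 0.52 on the log2 scale (SE 0.16, limma adjusted p = 0.037). That call was lost without either 24 h replicate or either 48 h replicate (limma adjusted p 0.0575 to 0.357), in the fit of the compared groups alone (0.0565) and with the replicate block (0.0535). ST6GAL1, the more abundant of the pair, had 3057 and 2610 at 48 h, against 3401 and 3438 in E8 (log2 fold change -0.28, 95% interval -0.58 to 0.02, limma adjusted p = 0.23). At 12 h ST6GALNAC6, which acts on gangliosides and globosides and was chosen after its values were seen, fell to 393, against 552 and 806 in E8 (log2 fold change -0.76, limma adjusted p = 0.038). That call was lost without E8 replicate 2 or either 48 h replicate (limma adjusted p 0.0573 to 0.0734), in the fit of the compared groups alone (0.152) and with the replicate block (0.0892). Over all 17 sialyltransferase genes tested, 1 was higher and 3 lower at 48 h (23.5% called, beside 11.5% of all genes), 1 higher and 1 lower at 24 h (11.8%, below the 16.2% of all genes), and 1 higher and 3 lower at 12 h (23.5% beside 7.46%), with ST3GAL3 the higher one each time.

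At 24 h of XMD892, 15 of the 67 members passed the test against E8, 6 higher and 9 lower, which was 22.4% of the members beside 16.2% of all genes (8.66% higher and 7.56% lower). The median log2 fold change was -0.06 over the members and 0.01 over all genes. The count was 5 without 24 h replicate 1, 9 without 24 h replicate 2 and 26 without E8 replicate 2 (14 higher, 12 lower). At 12 h, 10 members passed, 1 higher and 9 lower, which was 14.9% beside 7.46% of all genes (2.56% higher and 4.89% lower), with medians of -0.15 and 0.02. The count at 12 h was 17 without E8 replicate 1, 16 without E8 replicate 2, 5 in a fit of the compared groups alone and 22 after the GC content trend of every library was removed. Quantile normalisation gave 2 higher and 7 lower at 12 h. Apart from quantile normalisation, the share of all genes called moved in the same direction as the count in each fit named here. With the GC trend removed that share was 15.4% at 12 h. The 3 comparisons share the E8 libraries, so their calls are not independent. At 1 or more times 26 members passed, 4 passed at both 24 h and 48 h (ST3GAL3, MGAT4C, B4GALT3 and GALNT10), and 41 passed at none. The matching shares of all genes were not computed, so these counts cannot be set against the rest of the genes.

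**Figure D4:**
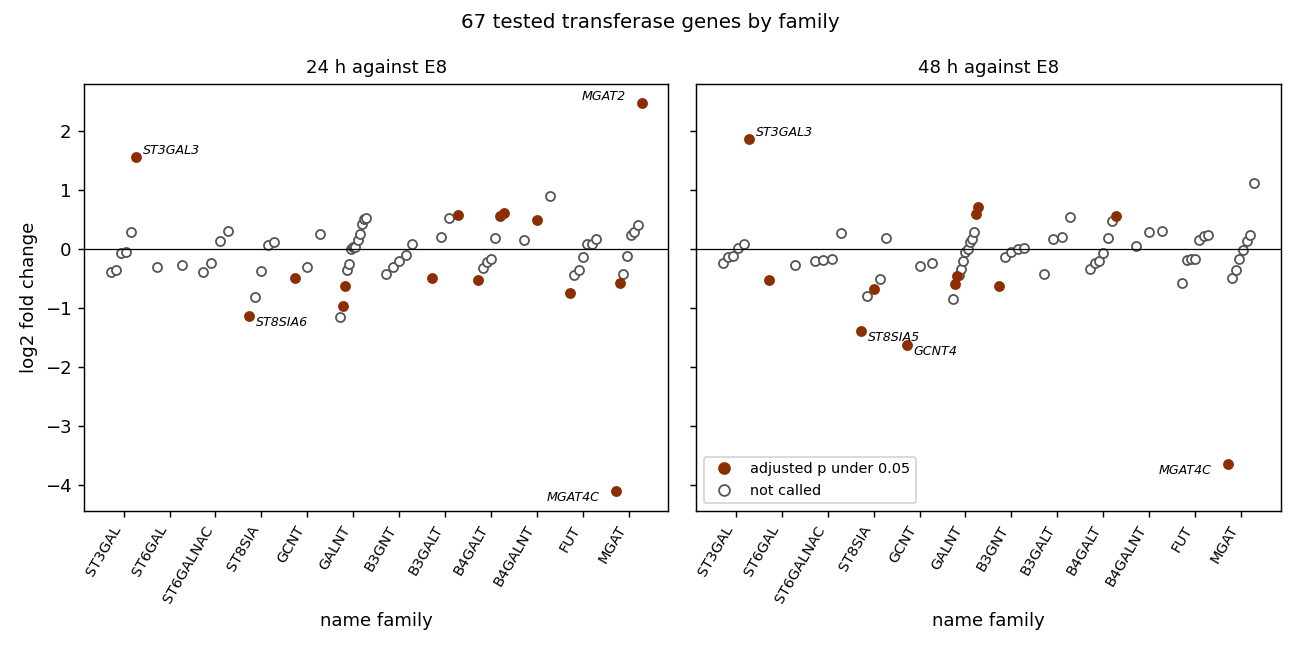
Log2 fold changes of the 67 tested transferase genes by name family, at 24 h (left) and 48 h (right) of XMD892 against E8; filled points passed limma at an adjusted p under 0.05. Most genes lie within 1 log2 unit of 0, and MGAT4C, MGAT2, ST3GAL3, GCNT4, ST8SIA5 and ST8SIA6 lie outside it where they passed.

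The GALNT genes, which start mucin-type O-glycans on serine and threonine, had calls in both directions at 48 h. Of 13 tested, 2 were higher and 2 lower at 48 h (30.8% called, beside 11.5% of all genes), each of them a call that was lost when 1 library was left out, and 2 were lower at 24 h (15.4%, near the 16.2% of all genes). GALNT3 had 309 and 284 normalised reads at 24 h and 273 at 12 h, against 643 and 523 in E8, with log2 fold changes of -0.97 and -1.09 (SE 0.17 and 0.21, limma adjusted p 0.0009 and 0.0029). At 48 h it had 424 and 434, between the earlier times and E8 (log2 fold change -0.43, limma adjusted p = 0.11). The calls of GALNT3 at 12 h and 24 h held under every setting tried.

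GALNT10 had 829 and 666 normalised reads at 48 h and 703 and 743 at 24 h, against 1066 and 1175 in E8 (log2 fold changes -0.59 and -0.63, limma adjusted p 0.019 and 0.011). Its calls were lost without 48 h replicate 2 (limma adjusted p = 0.255) and without 24 h replicate 1 (0.113). GALNT7, which like GALNT10 prefers peptides that already carry a sugar, fell to 2200 and 2300 at 48 h, against 3455 and 2766 in E8 (log2 fold change -0.46, limma adjusted p = 0.048). GALNT18 rose to 151 and 121 at 48 h, against 77.7 and 86.8 in E8 (log2 fold change 0.71, limma adjusted p = 0.048), and GALNT16 rose to 317 and 300, against 196 and 212 in E8 (log2 fold change 0.60, limma adjusted p = 0.046). These 3 calls lay just inside the threshold. Each was lost without E8 replicate 1 or either 48 h replicate, and for GALNT7 and GALNT18 also without either 24 h replicate and for GALNT16 without 24 h replicate 2, with limma adjusted p of 0.05 to 0.343. All 3 also ended without a filter and in the fit of the compared groups alone (limma adjusted p 0.0501 to 0.0735), and those of GALNT16 and GALNT18 ended with DESeq2 (adjusted p 0.0725 and 0.105).

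Among the chain-lengthening enzymes, B3GNT7, the member with the highest level per kb, had 3013 and 3102 normalised reads at 48 h and 2659 at 12 h, against 4242 and 5286 in E8 (log2 fold changes -0.63 and -0.83, SE 0.15 and 0.18, limma adjusted p 0.0066 and 0.0055). At 24 h it had 4220 and 4012 (log2 fold change -0.20, limma adjusted p = 0.37). The 48 h call was lost without either 48 h replicate (limma adjusted p 0.0808 and 0.055), and the 12 h call in a fit of the compared groups alone (0.06). B3GNT2, the main enzyme of lactosamine chain extension, had 924 ± 4.41 at 48 h and 1015 ± 124 in E8, and B3GNT5, which starts lacto-series glycolipids, had 502 ± 98.5 and 499 ± 60.9 (SD, n = 2 each). Neither passed the test at any time.

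B4GALT3, a galactosyltransferase that makes lactosamine units, rose at 24 h and 48 h. It had 1175 and 1059 normalised reads at 48 h and 1243 and 1089 at 24 h, against 705 and 812 in E8 (log2 fold changes 0.56 and 0.62, SE 0.16 for both, limma adjusted p 0.022 and 0.01). The calls were lost without either 48 h replicate (limma adjusted p 0.221 and 0.0828) and without 24 h replicate 1 (0.173). The PPOX gene overlaps it on the opposite strand in GENCODE 29. B4GALT1, the main lactosamine galactosyltransferase, had 625 and 665 at 48 h, against 817 and 672 in E8 (log2 fold change -0.20, limma adjusted p = 0.47). B4GALNT4, which makes the LacdiNAc unit, rose to 1697 and 1632 at 24 h, against 1023 and 1377 in E8 (log2 fold change 0.49, limma adjusted p = 0.044). That call was lost without E8 replicate 1, either 24 h replicate or either 48 h replicate (limma adjusted p 0.0645 to 0.244). With the GC trend removed the log2 fold change of B4GALNT4 was 0.21 (limma adjusted p = 0.138), and the call also ended with edgeR, DESeq2, quantile normalisation and the fit of the compared groups alone (adjusted p 0.0548 to 0.071).

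B4GALT7 and B3GALT6 add the first and second galactose of the linker that joins glycosaminoglycan chains to proteoglycans. B4GALT7 had 580 and 572 normalised reads at 24 h, against 330 and 461 in E8 (log2 fold change 0.56, SE 0.18, limma adjusted p = 0.034). B3GALT6 had 1139 and 956 at 24 h, against 623 and 774 in E8 (log2 fold change 0.59, SE 0.17, limma adjusted p = 0.021), and 720 and 852 at 48 h (limma adjusted p = 0.55). B3GAT3, which adds the next sugar of the same linker and is not matched by the name rule, rose to 875 ± 166 at 24 h, against 478 ± 113 in E8 (SD, n = 2 each; log2 fold change 0.88, limma adjusted p = 0.003). Both members' calls were lost without E8 replicate 1 (limma adjusted p 0.226 for B4GALT7 and 0.0786 for B3GALT6) and without 24 h replicate 1 (0.174 and 0.269). The B4GALT7 call was also lost without 24 h replicate 2 or either 48 h replicate (limma adjusted p 0.0527 to 0.125), and the B3GAT3 call without 24 h replicate 1 (0.0624). With the GC trend removed the log2 fold change of B3GALT6 was 0.33 and its call ended (limma adjusted p = 0.0598). The B4GALT7 call also ended with quantile normalisation, DESeq2 and the fit of the compared groups alone (adjusted p 0.0508 to 0.0528).

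B3GALT5, B4GALT6 and A4GALT, enzymes of the glycolipids that carry stem-cell antigens, were lower at 24 h, while ST3GAL2, B4GALT5 and B4GALNT1, which act in the same glycolipid pathways, did not pass the test. B3GALT5, which makes the globo-series antigen that ST3GAL2 then caps, had 1710 and 2060 normalised reads at 24 h, against 2785 and 2513 in E8 (log2 fold change -0.50, SE 0.16, limma adjusted p = 0.041). At 48 h it had 2285 and 1695 (log2 fold change -0.43, limma adjusted p = 0.09). B4GALT6, a lactosylceramide synthase, had 655 and 584 at 24 h and 500 at 12 h, against 1028 and 771 in E8 (log2 fold changes -0.53 and -0.83, limma adjusted p 0.042 and 0.018). Its partner B4GALT5 had 2881 and 3337 at 24 h, against 3538 and 3445 in E8 (log2 fold change -0.17, limma adjusted p = 0.45). ST3GAL2 had a log2 fold change of 0.29 at 24 h (limma adjusted p = 0.245). A4GALT, which commits lactosylceramide to the globo series and is not matched by the name rule, fell to 199 and 210 at 48 h, against 376 and 473 in E8 (log2 fold change -1.04, SE 0.19, limma adjusted p = 0.00083). At 24 h A4GALT had 255 ± 8.53 (SD, n = 2; log2 fold change -0.72, limma adjusted p = 0.012), a call lost without 24 h replicate 1 (0.0953). B4GALNT1, which starts complex gangliosides, had 21.9 and 22.4 at 24 h, against 15.7 and 8.26 in E8 (log2 fold change 0.90, limma adjusted p = 0.22). The B3GALT5 call at 24 h was lost without E8 replicate 1 (limma adjusted p = 0.0743) and without 24 h replicate 1 (0.384), and that of B4GALT6 without E8 replicate 1, either 24 h replicate or either 48 h replicate (0.0596 to 0.253). In a fit of the compared groups alone both calls of B4GALT6 ended (limma adjusted p 0.0561 at 24 h and 0.097 at 12 h).

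Of 7 fucosyltransferase genes, none passed the test at 48 h, where 11.5% of all genes did. There 1 of the 7 had an unadjusted limma p under 0.05, as did 4368 of all 16351 genes. FUT9, which makes the Lewis X antigen, had 88.0 normalised reads at 12 h and 91.6 and 113 at 24 h, against 177 and 164 in E8 (log2 fold changes -0.94 and -0.74, SE 0.27 and 0.22, limma adjusted p 0.037 and 0.029). At 48 h it had 116 and 112, below both E8 libraries (log2 fold change -0.58, limma adjusted p = 0.098). FUT1, which makes the H antigen, fell to 103 in the 12 h library, against 189 and 244 in E8 (log2 fold change -1.05, SE 0.26, limma adjusted p = 0.013). At 24 h it had 192 and 201 and at 48 h 172 and 213, within or beside the E8 range. FUT4, FUT8, the core fucosyltransferase of N-glycans, and FUT2, the secretor enzyme, had 262 ± 59.5, 546 ± 28.4 and 32.5 ± 3.16 at 48 h, and 291 ± 3.07, 488 ± 26.2 and 27.2 ± 1.06 in E8 (SD, n = 2 each). Their limma adjusted p at 48 h lay between 0.57 and 0.73. The FUT1 call held under every setting tried, and the FUT9 calls were lost without E8 replicate 1 (limma adjusted p 0.0608 at 12 h and 0.107 at 24 h), at 24 h without 24 h replicate 1 (0.28) and at 12 h without either 48 h replicate (0.0541 and 0.0523). The FUT9 calls also ended with DESeq2 (adjusted p 0.0746 at 12 h and 0.054 at 24 h), at 24 h with the GC trend removed (0.0649), and at 12 h with quantile normalisation, the replicate block and the fit of the compared groups alone (0.0632 to 0.0851).

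Genes that supply and transport the donor sugars were examined beside the transferases. Of 26 genes of nucleotide-sugar synthesis tested, 3 were higher and 1 lower at 48 h (15.4% called, beside 11.5% of all genes), with a median log2 fold change of 0.12. GNE, the first committed enzyme of sialic acid synthesis, rose to 374 and 382 normalised reads at 48 h, against 221 and 168 in E8 (log2 fold change 0.97, SE 0.19, limma adjusted p = 0.0016). UAP1L1, a relative of the UDP-GlcNAc pyrophosphorylase, fell to 266 and 220, against 506 and 697 in E8 (log2 fold change -1.29, SE 0.19, limma adjusted p = 0.00011). GMPPB, which makes GDP-mannose, and GFPT2, of the hexosamine pathway, rose with log2 fold changes of 0.57 and 0.50 at 48 h (limma adjusted p 0.04 and 0.029). The GMPPB call was lost without E8 replicate 1 or either 48 h replicate (limma adjusted p 0.166 to 0.247) and that of GFPT2 without 48 h replicate 1 (0.378). At 24 h 2 were higher and 2 lower (15.4%, beside 16.2% of all genes), GNE and GMPPB, and UAP1L1 and UGP2, the UDP-glucose pyrophosphorylase (log2 fold changes 0.87, 0.98, -1.07 and -0.65), of which UGP2 was lost without 24 h replicate 2 (limma adjusted p = 0.0517).

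Of 11 nucleotide-sugar transporters tested, 2 were higher and none lower at 48 h and again at 24 h (18.2% called, beside 11.5% of all genes at 48 h and 16.2% at 24 h), with medians of 0.03 and 0.22. SLC35A2, which carries UDP-galactose into the Golgi, rose to 526 ± 7.85 at 48 h, against 363 ± 59.7 in E8, and SLC35C2, which acts in fucose supply, rose to 1384 ± 96.4, against 982 ± 126 (SD, n = 2 each; log2 fold changes 0.55 and 0.50, limma adjusted p 0.043 and 0.037). Both 48 h calls were lost without E8 replicate 1, either 24 h replicate or either 48 h replicate. The 24 h calls were lost without 24 h replicate 1, that of SLC35C2 also without 24 h replicate 2. Both 48 h calls also ended with quantile normalisation, the replicate block and the fit of the compared groups alone (limma adjusted p 0.0519 to 0.0603). That of SLC35A2 ended with the same total and DESeq2 as well (adjusted p 0.0515 and 0.0584). Of 31 genes of N-glycan assembly and trimming, none was higher and 1 lower at 48 h (3.23%, below the 11.5% of all genes), with a median of 0.03. That gene, MAN1C1, a Golgi mannosidase that trims N-glycans before MGAT1 acts, had 252 and 343 normalised reads at 48 h, against 568 and 662 in E8 (log2 fold change -1.06, SE 0.18, limma adjusted p = 0.00059). At 24 h MOGS and ALG1, early enzymes of the pathway, were higher (log2 fold changes 0.55 and 0.61, limma adjusted p 0.05 and 0.017) and MAN1C1 lower (-0.64). The MOGS call, an adjusted p that rounds to the threshold, was lost without any 1 of 5 libraries (E8 replicate 1, either 24 h or either 48 h replicate). It also ended with pseudocount 0.5, TMM factors, the same total, quantile normalisation, edgeR and DESeq2 (adjusted p 0.0517 to 0.107). Robust variance moderation, the fit of the compared groups alone and removal of the GC trend ended it too (limma adjusted p 0.0616 to 0.0823). The calls at 24 h of ALG1 (limma adjusted p = 0.24) and MAN1C1 (0.125) were lost without 24 h replicate 1, and that of MAN1C1 without 24 h replicate 2 (0.0697).

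Of 32 glycan transferases whose names the rule does not match, 3 were higher and 2 lower at 48 h (15.6% called, beside 11.5% of all genes), with a median log2 fold change of 0.02. Besides A4GALT and B3GAT3, these included POMT1, which starts O-mannose glycans, higher with 562 ± 67.5 at 48 h and 356 ± 51.0 in E8 (limma adjusted p = 0.016), and EOGT, which adds GlcNAc to EGF repeats, lower with 276 ± 47.0 and 437 ± 55.4 (SD, n = 2 each; limma adjusted p = 0.023). Without E8 replicate 1 the limma adjusted p was 0.0515 for POMT1 and 0.081 for EOGT, and without 48 h replicate 1 it was 0.21 and 0.278. The B3GAT3 call at 48 h (log2 fold change 0.59, limma adjusted p = 0.04) was lost without E8 replicate 1 or either 48 h replicate (0.0931 to 0.291). Of 13 glycan sulfotransferases, 1 was higher and 4 lower at 12 h (38.5% called, beside 7.46% of all genes), 3 were higher and 1 lower at 24 h (30.8% beside 16.2%), and none was higher and 2 lower at 48 h (15.4% beside 11.5%). Their median log2 fold changes were -0.48, 0.07 and -0.11 in that order of time, and 2 were lower at 48 h than at 24 h. Of the calls at 24 h, those of CHST7, CHST8 and CHST9 ended with a library left out, and that of CHST2 held. CHST9, which sulphates GalNAc, fell to 382 and 335 normalised reads at 48 h, against 799 and 616 in E8 (log2 fold change -0.97, SE 0.18, limma adjusted p = 0.0009). CHST2, which sulphates GlcNAc, rose to 1307 and 1010 at 24 h, against 492 and 562 in E8 (log2 fold change 1.13, SE 0.17, limma adjusted p = 0.00011), and had 658 and 679 at 48 h (log2 fold change 0.35, limma adjusted p = 0.19). CHST6, a keratan sulphate sulfotransferase, fell at 48 h (log2 fold change -0.50, limma adjusted p = 0.037), a call lost without either 24 h or either 48 h replicate (limma adjusted p 0.0647 to 0.267).

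Of 18 glycan hydrolases tested, 1 was higher and 1 lower at 48 h (11.1%, near the 11.5% of all genes), with a median log2 fold change of 0.26. GALC, the lysosomal galactosylceramidase, had 290 and 315 normalised reads at 48 h, against 536 and 471 in E8 (log2 fold change -0.73, SE 0.18, limma adjusted p = 0.0094). MAN2B1, a lysosomal mannosidase, rose to 1335 ± 108 at 48 h, against 919 ± 124 in E8 (SD, n = 2 each; log2 fold change 0.54, limma adjusted p = 0.025). The GALC call was lost without either 48 h replicate (limma adjusted p 0.112 and 0.0521), that of MAN2B1 also without E8 replicate 1 (0.0702 to 0.245). Of 11 lectin genes 1 was lower at 48 h (9.09%), LGALS3BP, a galectin-binding glycoprotein, with 320 ± 38.2 at 48 h and 490 ± 41.6 in E8 (limma adjusted p = 0.034, and 0.085 or 0.256 without a 48 h replicate). None of 18 genes of Golgi structure, pH and the oligomeric Golgi complex passed limma at any time against E8. Of all genes, 7.46% passed at 12 h, 16.2% at 24 h and 11.5% at 48 h. The number of the 18 with an unadjusted limma p under 0.05 was 2 at 12 h, 1 at 24 h and 0 at 48 h. Over all 16351 genes it was 3687, 4977 and 4368 in that order. Of 16 glycoproteins that carry stem-cell glycans, 1 was higher and none lower at 48 h (6.25%, below the 11.5% of all genes). At 24 h 2 were higher and 2 lower (25% beside 16.2%), calls that each ended with a library left out. The gene called at 48 h was NCAM1, the carrier of polysialic acid, with 536 and 431 normalised reads at 48 h, against 196 and 211 in E8 (log2 fold change 1.24, SE 0.19, limma adjusted p = 0.00012), while PODXL, the carrier of the TRA antigens, had 27081 ± 709 and 22619 ± 109 (SD, n = 2 each; limma adjusted p = 0.24).

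Sums of cell-type markers lay apart from E8 at 48 h for mesoderm, mesendoderm and endoderm, and trophoblast and amnion, and overlapped with E8 for the others. The summed level of 12 stem-cell markers, all tested, lay between 197880 and 219757 normalised reads over the treated libraries, against 205323 to 232844 in E8. Of the 12, 2 were lower at 48 h, NANOG and TDGF1, and none higher (16.7% called, beside 11.5% of all genes). At 48 h 10 had a negative log2 fold change, the lowest -1.16. At 24 h 3 were lower, NANOG, TDGF1 and SALL4 (25% beside 16.2%), calls that each ended with a library left out. The sum of 4 mesoderm markers lay between 1009 and 1323 at 48 h, against 2614 to 2818 in E8. Of the 4, all tested, 1 was lower at 48 h, KDR, and none higher (25% beside 11.5%). The sum of 5 mesendoderm and endoderm markers lay between 122 and 123 at 48 h, against 348 to 364 in E8. Of the 3 of these tested, 2 were lower at 48 h, MIXL1 and GSC, and none higher (66.7% beside 11.5%). The GSC call ended with a library left out. The sum of 7 neuroectoderm markers was 21366 at 12 h, 15006 to 16158 at 24 h and 10963 to 11870 at 48 h, against 10058 to 13703 in E8, with LHX2 at 0 in at least 1 library. NES made up most of that sum. Of the 5 tested markers 1 was higher (NES) and 2 lower (OTX2 and SIX3) at 24 h (60% called, beside 16.2% of all genes). At 48 h 1 was higher (SOX1) and 2 lower (OTX2 and SIX3), 60% beside 11.5%. The calls of NES and SIX3 at 24 h and of SOX1 and OTX2 at 48 h ended with a library left out. The sum of 3 trophoblast and amnion markers was 99.3 to 136 at 48 h, against 163 to 202 in E8, with TFAP2A at 0 in at least 1 library. Only 1 of the 3, KRT7, was tested, and it did not pass at 48 h, where 11.5% of all genes did. The 2 fibroblast markers in the file summed to 2115 to 2385 at 48 h, against 1869 to 2267 in E8. The E8 libraries also differed from each other along transcript GC content, with a Spearman correlation of -0.64 over 15973 genes, which are not independent replicates, between their log2 difference and GC content. The part of these differences in the transferase results was not tested beyond the fit with the GC trend removed.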

How the data were processed

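The deposited table holds, per gene symbol and library, a signal. The authors scaled each library's gene read counts by a single size factor, so each value is a whole number of reads times that factor (100% of values within 0.1 of a whole number). The submitters' processing notes name Trimmomatic 0.36, STAR, featureCounts 1.5.3, DESeq2 1.26.0 and the hg38 genome; which annotation, strandedness and filters went into the counting is not given in the sources used here. The table's 2 further columns of per-library values match no sample and were not used.

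The test covered the 16351 of 19775 genes whose values averaged at least 10. In R 4.3.3, limma 3.58.1 was fitted to log2(value + 1), pseudocount 1, with a mean for each of the groups and the prior variance trended on level, over 7 libraries (3 residual and 18.4 prior degrees of freedom). The 12 h, 24 h and 48 h groups were each compared with E8, and 48 h with 24 h, and a gene was called when its p, adjusted by Benjamini-Hochberg over the 16351 genes, was below 0.05. Fold changes are therefore on the log2(value + 1) scale. The pipeline was tested on simulated data.

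Gene positions, exon lengths and GC content came from GENCODE 29 (74 of the 75 members matched, GCNT6 did not), and promoters from RefSeq on GRCh38.p14. Members and gene lists were chosen with earlier results of these data known. Genes described are ST3GAL3 and GCNT4, members that passed at 24 h, at 48 h or between them, the highest member of each family per kb, members tied to glycans of stem cells, up to 4 called genes of each pathway list, and neighbours of ST3GAL3 and GCNT4. Not every gene that this rule names is reported here. Alternatives were other pseudocounts, filters and scalings, edgeR 4.0.16 and DESeq2 1.42.0 on the whole reads, other variance models, a replicate block, removal of the trend along GC content (loess, span 0.3) and leaving out each library. Depth sets the counting error alone, and the tests rest on the spread between libraries.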

Additional observations from a re-analysis of the deposited data

Results flagged for a closer look

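GCNT4 differed between the effects of XMD892 at 48 h and at 24 h. It had 30.2 and 37.7 normalised reads at 48 h, against 166 and 99.1 at 24 h, a log2 difference of -1.89 with a limma adjusted p of 0.0005, and both 48 h libraries lay below both 24 h libraries. No other transferase gene passed this direct comparison.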

How the results depend on the processing

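Of 38 calls of transferase genes, 12 held under all of the alternatives that could be run for them, 26 were lost under at least 1 and 0 turned direction. Of the 20 alternatives besides the reported fit, 18 to 20 could be run for each call. The 12 h calls could not be run without their only library, nor those of MGAT4C and MGAT2 with the filter at a mean of 50. Those that held were ST3GAL3, GCNT4, MGAT4C and ST8SIA5 at 48 h, ST3GAL3, MGAT4C, MGAT2 and GALNT3 at 24 h, GALNT3, ST8SIA6 and FUT1 at 12 h, and GCNT4 between 48 h and 24 h. With 1 library left out, the number of members called lay between 4 and 23 at 48 h (6 without 48 h replicate 1), between 5 and 26 at 24 h (9 without 24 h replicate 2), between 8 and 17 at 12 h (16 without E8 replicate 2) and between 1 and 6 for 48 h against 24 h (5 without E8 replicate 2). A fit of only the groups compared gave 5 at 12 h and 6 for 48 h against 24 h, and removing the trend along GC content gave 22 at 12 h and 2 for 48 h against 24 h. For the counts given here that differ from the reported fit, the share of all genes called moved in the same direction. The cause was not tested. DESeq2 gave 2 higher and 7 lower at 48 h. The log2 fold change at 48 h lay between 1.77 and 1.97 for ST3GAL3 and between -1.86 and -1.40 for GCNT4 with 1 library left out. Of the 48 calls of pathway genes, 12 held under every alternative run for them, 36 were lost under at least 1 and 0 turned direction. The number of member calls lost was 14 in the fit of only the groups compared, 8 with DESeq2, 5 with quantile normalisation, 5 with the replicate block, 4 without a filter, 3 with the GC trend removed, 2 with TMM factors, 2 with the same total, and 1 each with robust variance moderation and edgeR.

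Samples with the same replicate number did not deviate together (correlations of -0.07, -0.05 and -0.04 between groups over 16351 genes). Pairing by number was thus not seen over all genes, which does not exclude it. The E8 replicates also differed along GC content (Spearman correlation -0.64). With the replicate number as a block, 10 members were called at 48 h, 16 at 24 h, 8 at 12 h and 2 for 48 h against 24 h. The share of all genes called was 12.0%, 16.1%, 7.53% and 1.77% in that order, against 11.5%, 16.2%, 7.46% and 1.2% in the reported fit. At 48 h, 24 h and 12 h that share moved against the count of members.

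Values rest on 2 libraries per group and 1 at 12 h, at 18528689 to 24148186 reads each. Members under a mean of 10 were too low to test. Genes that overlap others on either strand may share reads. E8 had no 12 h or 24 h harvest.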
